A study of Mus musculus with 6 samples.

Results

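The nuclei described here are the 782 nuclei that carry cluster number 9 in the annotation deposited with a single-nucleus RNA-seq study of mouse jejunal organoids, 2.05% of 38154 nuclei in all. Membership was taken from that annotation alone, and every nucleus with this number was kept. The annotation gives numbers and no names. The cluster was described with its 6 marker genes, Rfx6, Kcnj3, Etv1, Pax6, Rimbp2 and Kcnb2, and with lists of genes of enteroendocrine cells and of the other cell types of the gut. The markers were chosen with earlier results of these data known, so their level in the cluster is no test of its name. Cluster 9 was also compared with cluster 10, another enteroendocrine group with 483 nuclei (1.27%).

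Enteroendocrine cells are the hormone-producing cells of the intestinal epithelium. They arise from crypt stem cells through a short-lived progenitor stage marked by the transcription factor Neurog3, and later factors such as Neurod1, Pax6, Isl1 and Rfx6 set which hormone a cell makes. L cells make GLP-1 and PYY, K cells make GIP, I cells make CCK, S cells make secretin, and enterochromaffin cells make serotonin. Like neurons, they hold secretory granules, release machinery and voltage-gated ion channels that couple a stimulus at the cell surface to secretion.

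Organoids are small epithelial cultures, here grown from the jejunum of C57BL/6 mice of 8 to 12 weeks. Each was kept in medium conditioned by quiescent mouse embryonic fibroblasts (QCM) or by senescent ones (SCM), and the conditioned media were mixed with an organoid growth medium. Fibroblasts were made quiescent by low serum and senescent by X-ray irradiation or doxorubicin, and the labels do not say which was used for these samples. There were 3 samples in QCM and 3 in SCM, and neither the mouse behind each sample nor a shared culture day is given in the labels.

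Cluster 9 held 43, 115 and 379 nuclei in QCM replicates 1, 2 and 3, and 3, 54 and 188 nuclei in SCM replicates 1, 2 and 3. SCM replicate 1 was left out of all comparisons of genes by sample, which need at least 10 nuclei in a sample, so that 3 QCM samples stood against 2 SCM samples. Its 3 nuclei are included where nuclei of all samples were counted or grouped together. The nuclei carried 679207 to 944596 UMIs (unique molecular identifiers, counted RNA molecules) per QCM sample, 428928 and 848693 in SCM replicates 2 and 3, and 18254 in SCM replicate 1. Single nuclei ranged from 673 to 119378 UMIs with a median of 2156.5. QCM replicate 1 stood apart, with a median of 11409 UMIs per cluster 9 nucleus against 1528 to 3900.5 in the other 4 samples used. Of the 782 nuclei, 15 had a barcode that also occurred in another library, and 0 barcodes were shared by cluster 9 nuclei of 2 libraries.

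The first question was what share of the organoid nuclei belonged to the cluster in each medium. The share was 1.13% (Wilson 95% confidence interval 0.843% to 1.52%), 1.45% (1.21% to 1.74%) and 3.74% (3.38% to 4.12%) in QCM replicates 1, 2 and 3. The SCM values were, in the same order, 0.698% (0.238% to 2.03%), 1.07% (0.824% to 1.4%) and 1.74% (1.51% to 2.0%). QCM replicate 3 was the highest of the 6 samples, and the other QCM samples lay within the range of SCM. QCM averaged 2.11% ± 1.42 and SCM 1.17% ± 0.525 (SD, 3 samples each), and the difference of -0.938 percentage points had p = 0.4 in an exact permutation test (two-sided), where 3 samples against 3 cannot go below 0.1. The edgeR quasi-likelihood test on nuclei per cluster gave a log2 ratio of SCM to QCM of -0.76 ± 0.55 (SE) and an adjusted p of 0.882 over the 15 clusters, and without QCM replicate 3 the ratio was -0.05. The SD of QCM was larger than this difference and the SD of SCM was smaller.

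Of the nuclei in clusters 9 and 10 together, those of cluster 9 were 59.7%, 61.2% and 64.9% in QCM (replicates 1 to 3) and 40.9% and 66.7% in SCM replicates 2 and 3. SCM replicate 2 was the one sample in which cluster 10 was the larger of the pair, apart from SCM replicate 1 with 3 of 7 nuclei. The difference of the means was -8.14 percentage points with p = 0.8 in the exact permutation test (two-sided), which 3 samples against 2 cannot bring below 0.2, and it had the opposite sign, 4.74, without SCM replicate 2.

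**Figure D1:**
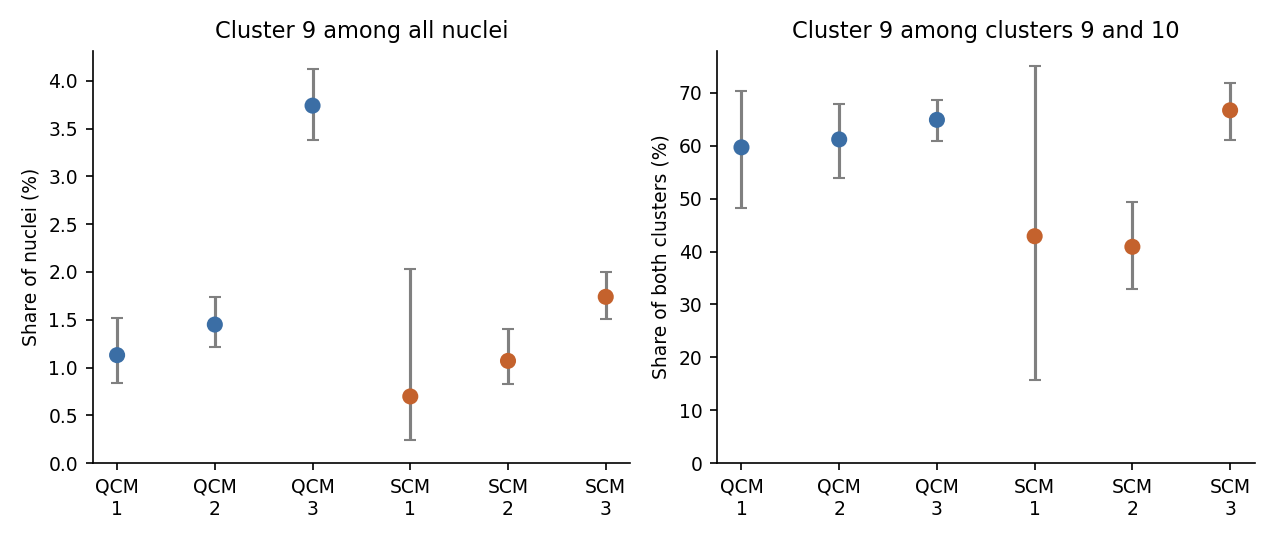
Left, share of all nuclei (%) that belonged to cluster 9 in each of the 6 samples (x axis: medium and replicate number). Right, share of the nuclei of clusters 9 and 10 together (%) that belonged to cluster 9. Points are samples, blue for QCM and orange for SCM, and bars are Wilson 95% confidence intervals, which cover counting error only. QCM replicate 3 at 3.74% lies above the other 5 samples, which span 0.698% to 1.74%, and SCM replicate 2 at 40.9% lies below the other 5 samples on the right.

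The markers were compared next, in counts per 1000000 UMIs (CPM) of the nuclei summed per sample. Nuclei had been clustered on expression, so differences between cluster 9 and other nuclei are given as descriptions and were not tested. All 6 markers were high in cluster 9 in each of the 5 samples. Rfx6, a transcription factor needed for the enteroendocrine and pancreatic islet lineages (chromosome 10, 51677756 to 51730432 on GRCm38), had 171, 515 and 297 CPM in QCM replicates 1, 2 and 3 and 588 and 408 CPM in SCM replicates 2 and 3, against a mean of 5.68 CPM in all other nuclei. Pax6, a paired-box transcription factor that activates hormone genes in islets and gut (chromosome 2, 105668900 to 105697364), had 33.9, 110 and 107 CPM in QCM and 90.9 and 117 CPM in SCM, against 1.11 CPM in the others. Etv1, an ETS family transcription factor (chromosome 12, 38779380 to 38870484), had 61.4, 258, 176, 198 and 153 CPM in the same order, against 2.26 CPM in the others. For each of these 3 transcription factors QCM replicate 1 was the lowest of the 5 samples, and even there the level was above that of the nuclei outside the cluster.

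The remaining markers belong to the excitable and secretory side of the cell. Kcnj3 encodes an inwardly rectifying potassium channel opened by G proteins and had 33.9, 275 and 200 CPM in QCM and 326 and 223 CPM in SCM, against 2.86 CPM in all other nuclei. Kcnb2, a voltage-gated potassium channel gene, had 954, 2104 and 773 CPM in QCM and 2063 and 1637 CPM in SCM, against 35.9 CPM. Rimbp2, whose product ties calcium channels to release sites, had 165, 483 and 303 CPM in QCM and 389 and 398 CPM in SCM, against 6.94 CPM. The log2 ratio of (CPM + 1) in cluster 9 over the rest of each sample's nuclei, a scale that understates changes of low genes, ranged over the 5 samples from 5.16 to 6.59 for Rfx6, 4.15 to 5.85 for Pax6, 4.58 to 6.45 for Etv1, 3.58 to 6.79 for Kcnj3, 4.06 to 5.85 for Kcnb2 and 4.57 to 6.18 for Rimbp2. By UMI, Rfx6 was seen in 344 of 782 nuclei (44.0%, Wilson 95% confidence interval 40.5% to 47.5%), Kcnb2 in 388 (49.6%, 46.1% to 53.1%) and Pax6 in 151 (19.3%, 16.7% to 22.2%). Cluster 8, which had the highest summed level of the enterocyte list of the 15 clusters (7576 CPM, against 2575 CPM in cluster 9), has 1416 nuclei with a median of 2366.5 UMIs, and the shares there were 2.05%, 6.99% and 0.141%. In cluster 10, at a median of 1903 UMIs, they were 14.7%, 22.2% and 1.04%. The shares in cluster 9 differed between samples. QCM replicate 3, with 379 of the 782 nuclei, had 26.4% for Rfx6 and 29.8% for Kcnb2. The other samples used had 48.4% to 81.5% and 55.3% to 85.2%. With each nucleus thinned to 1000 UMIs and shallower ones left out, Kcnb2 was seen in 24.0% there and in 34.9% to 73.6% in the others. Rfx6 was then seen in 18.5% there and in 14.0% to 43.2% in the others.

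**Figure D2:**
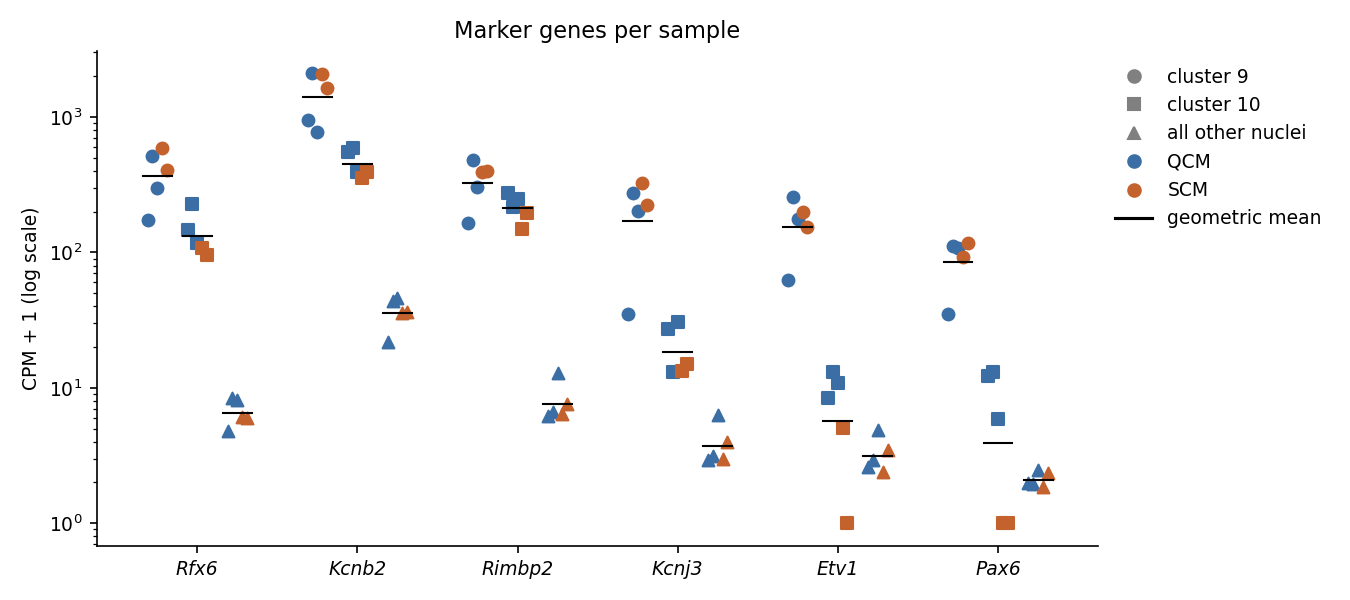
Level of the 6 marker genes in cluster 9 (circles), cluster 10 (squares) and all nuclei outside cluster 9 (triangles), as CPM + 1 on a log axis, per sample (blue QCM, orange SCM, 5 samples each). Horizontal lines are geometric means. Cluster 9 lies above the other nuclei for each gene, while for Rimbp2 the lowest cluster 9 sample, QCM replicate 1 at 165 CPM, lies below the cluster 10 mean of 215 CPM.

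Across all genes, 122 of the 10496 with at least 10 CPM in cluster 9 exceeded the rest of the nuclei by 4-fold or more in each of the 5 samples (1.16% of those genes). Without QCM replicate 1 there were 181. The 15 genes with the largest lowest ratio were Rfx6, Vwa5b2, Slc8a1, Gm16183, Etv1, Rimbp2, Ptprn2, Sphkap, Miat, Pax6, Adgrg4, Myt1, Kcnb2, Neurod1 and Nkx2-2. Slc8a1 encodes a sodium and calcium exchanger of the cell membrane and had 263 ± 91.3 CPM (SD, n = 5) against 4.03 CPM in the other nuclei. Ptprn2 encodes phogrin, a membrane protein of secretory granules, and had 2164 ± 896 CPM (SD, n = 5) against 58.6 CPM. Vwa5b2 had 108 ± 23.1 CPM (SD, n = 5) against 1.83 CPM, and the long noncoding RNA Miat had 49.5 ± 23.3 CPM (SD, n = 5) against 0.267 CPM. Gm16183 is annotated as an antisense RNA on chromosome 8, and since the sources used here do not say whether strand was used in counting, its reads cannot be told apart from those of an overlapping gene.

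Among 12 genes of the enteroendocrine progenitor, 9 reached 10 CPM and 4 passed the same 4-fold limit in each of the 5 samples. These were Neurog3, the factor that starts the lineage, Neurod1 and Neurod2, which follow it, and the repressor gene Runx1t1. Neurog3 (chromosome 10, 62133090 to 62134763) had 13.1, 30.9 and 15.9 CPM in QCM and 25.6 and 28.3 CPM in SCM, against 1.46 CPM in the other nuclei. Neurod1 had 92.6 ± 14.7 CPM (SD, n = 5) against 2.59 CPM. Sox4, Hes6 and Insm1 did not reach 4-fold in every sample. Sox4 had 194 ± 22.7 CPM (SD, n = 5) against 143 CPM in the other nuclei, and Insm1, a zinc finger repressor of endocrine precursors, had 22.9 ± 7.17 CPM (SD, n = 5) against 2.63 CPM.

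Of 21 lineage transcription factors, 14 reached 10 CPM and 7 passed the limit in each sample, namely Pax6, Isl1, Rfx6, Nkx2-2, Etv1, St18 and Myt1. Isl1, a LIM homeodomain factor of hormone cells, had 33.9, 94.2 and 72.0 CPM in QCM and 112 and 83.7 CPM in SCM, against 0.92 CPM in the other nuclei. St18 and Myt1, related zinc finger factors of endocrine precursors, had 206 ± 81.7 and 68.3 ± 32.3 CPM (SD, n = 5) against 13.5 and 1.26 CPM. Gata4 and Foxa1, which the wider epithelium also uses, had log2 ratios on both sides of 0, from -0.32 to 0.10 and from -1.64 to 0.23. Tox3 and Rfx3 had log2 ratios of 0.64 to 1.43 and 0.70 to 1.23, higher than the other nuclei in each of the 5 samples but below 4-fold.

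The secretory programme was described with 31 genes of granules and exocytosis, of which 23 reached 10 CPM and 10 passed the limit, namely Pcsk1, Cpe, Ptprn2, Cadps, Syt13, Snap25, Rab3c, Rimbp2, Unc13a and Pclo. The scaffold gene Pclo had 290 ± 104 CPM (SD, n = 5) against 14.7 CPM, and Rph3al, an effector of Rab GTPases in exocytosis, had 300 ± 126 CPM against 66.0 CPM without reaching 4-fold in every sample. Pcsk1, the convertase that cuts prohormones such as proglucagon to GLP-1, averaged 77.9 CPM against 4.88 CPM, and Cpe, which trims the cut peptides, had 216 ± 82.3 CPM (SD, n = 5) against 14.4 CPM. Unc13b, a priming factor found in many epithelia, had 321 ± 73.2 CPM (SD, n = 5) against 280 CPM. The granule protein gene Chgb had 238, 445 and 461 CPM in QCM and 303 and 608 CPM in SCM, against 76.2 CPM in the other nuclei, and its lowest log2 ratio of 0.99 came from QCM replicate 1.

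Of 31 ion channel genes, 17 reached 10 CPM and 10 passed the limit, among them Kcnj3, Kcnb2, Abcc8 and 3 subunit genes of calcium channels. Cacna1a, the pore of P/Q-type calcium channels, had 951 ± 427 CPM (SD, n = 5) against 45.6 CPM, Cacna1c, that of an L-type channel, had 466 ± 219 CPM against 29.4 CPM, and the auxiliary subunit gene Cacna2d1 had 386 ± 177 CPM against 14.0 CPM. Abcc8, the sulfonylurea receptor of the ATP-sensitive potassium channel, had 61.2 ± 25.6 CPM (SD, n = 5) against 1.64 CPM. The calcium-activated potassium channel gene Kcnma1 had 265 ± 137 CPM (SD, n = 5) against 72.4 CPM, with a log2 ratio as low as 0.89. Of 24 genes of nutrient and peptide receptors, 2 reached 10 CPM and none of the 24 passed the limit. Ffar1, a receptor for long-chain fatty acids, had 2.61, 14.7 and 24.3 CPM in QCM and 4.66 and 11.8 CPM in SCM, against 0.616 CPM in the other nuclei, and Slc5a1, the sodium and glucose cotransporter shared with enterocytes, had 168 ± 55.4 CPM (SD, n = 5) against 170 CPM.

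Markers of other cell types were counted in the same way. None of the listed genes of tuft (12), goblet (10), Paneth (8), enterocyte (14), stem (10), fibroblast (10) or immune cells (8) passed the 4-fold limit in cluster 9, and the same held for the 14 fetal and 21 YAP target genes. The limit also needs 10 CPM in cluster 9, which 3, 6, 7, 10, 8, 0 and 0 of the listed genes reached, in the same order. No fibroblast or immune gene could therefore pass. Of the fetal and YAP target genes 7 and 9 reached it. The summed level of the stem list was 2042 to 4047 CPM in cluster 9 and 2405 to 4276 CPM in the other nuclei, and Lgr5 averaged 467 CPM in both. The enterocyte list summed to 1588 to 3176 CPM in cluster 9 and 1853 to 5280 CPM elsewhere. Of 10 genes of neurons and glia none passed the limit, but their sum was 32.6 to 56.0 CPM in cluster 9 and 8.82 to 14.2 CPM elsewhere, with no overlap. Most of it was Ret, a receptor tyrosine kinase gene (24.7 CPM on average), and Elavl4, an RNA-binding protein gene (8.28 CPM), while the neural crest gene Sox10 and the neuronal intermediate filament gene Prph had 0 UMIs. The fibroblast list summed to 1.31 to 16.5 CPM, with Col1a1, Col1a2, Col3a1 and Dcn at 0 UMIs in cluster 9. The ranges in and outside cluster 9 overlapped for the stem and enterocyte lists. The tuft list summed to 41.3 to 88.4 CPM in cluster 9 and 24.3 to 46.2 CPM elsewhere. Over all nuclei its sum in cluster 9, 64.0 CPM, was the next highest of the 15 clusters after cluster 11 at 710 CPM. The part of free RNA, of doublets and of expression in the nuclei themselves in these levels was not tested.

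Cluster 10 was compared with cluster 9 in the same samples to see where the pair of enteroendocrine clusters parted. Of the 122 genes high in cluster 9 against all other nuclei, 29 lay within 2-fold of cluster 10 in the median, and 17 also exceeded cluster 10 by 4-fold or more in each sample. In all, 22 of 10496 genes (0.21%) were at least 4-fold higher in cluster 9, and 7 of the 10139 genes with 10 CPM in cluster 10 (0.069%) were at least 4-fold higher there. Without QCM replicate 1 these counts were 51 and 11. Of the 6 markers 1, Etv1, reached 4-fold over cluster 10 in each sample. Rfx6 averaged 396 CPM in cluster 9 and 137 CPM in cluster 10, Kcnb2 1506 and 455 CPM, and Rimbp2 348 and 215 CPM, the last being lower in cluster 9 in QCM replicate 1. Isl1 and Etv1 were on the cluster 9 side, together with the hormone gene Gcg, the granule gene Scg2 and the channel gene Abcc8. On the cluster 10 side were Lmx1a, a LIM homeodomain factor of serotonin cells, and Tac1, which encodes substance P, with Afp, Cdk14, Egflam, Pappa2 and the noncoding 9330154J02Rik.

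Isl1 averaged 79.1 ± 29.2 CPM (SD, n = 5) in cluster 9 and 3.29 ± 3.43 CPM in cluster 10, with a lowest log2 ratio of (CPM + 1) of 3.40. The lowest was 2.88 for Etv1 and 4.10 for Sphkap, whose product anchors protein kinase A. Cluster 10 had 0 UMIs of these 3 genes in 1 or more samples, where the ratio depends on the added 1 CPM, so the highest ratios are not given. Scg2, which encodes secretogranin II, had 34.1 ± 14.8 CPM in cluster 9 and 0.804 ± 1.8 CPM in cluster 10. Dgki, a diacylglycerol kinase gene, had 112 UMIs in cluster 9 over the 5 samples and 0 among the 1455727 UMIs of cluster 10, at least 14.8-fold higher against a floor of 3 counts over all samples. On the same floor Scube1 was at least 9.53-fold and Rragb at least 8.47-fold higher. These genes were seen in cluster 9 in each of the 5 samples and in cluster 10 in none.

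Lmx1a ran the other way, with 171, 302 and 221 CPM in cluster 10 in QCM and 163 and 257 CPM in SCM, against 28.7, 16.2 and 7.41 CPM in cluster 9 in QCM and 11.7 and 23.6 CPM in SCM. Tac1 averaged 148 ± 54.5 CPM (SD, n = 5) in cluster 10 and 16.0 ± 11.4 CPM in cluster 9. Tph1, the enzyme that starts serotonin synthesis, averaged 125 ± 48.5 CPM in cluster 10 and 10.9 ± 8.68 CPM in cluster 9, but its smallest log2 difference, 1.41 lower in cluster 9, fell short of 4-fold. A Tph1 UMI was seen in 15 of 782 cluster 9 nuclei (1.92%) and in 16.8% of cluster 10 nuclei. Chga, the usual enteroendocrine marker, averaged 70.5 ± 34.7 CPM in cluster 9 and 217 ± 84.8 CPM in cluster 10 and was lower in cluster 9 in each of the 5 samples. Of the 11 serotonin genes none was at least 4-fold higher in cluster 9 than elsewhere, and Ddc and Gch1, which serve several amine pathways, were close in both clusters, with median log2 ratios of 0.19 and 0.35.

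**Figure D3:**
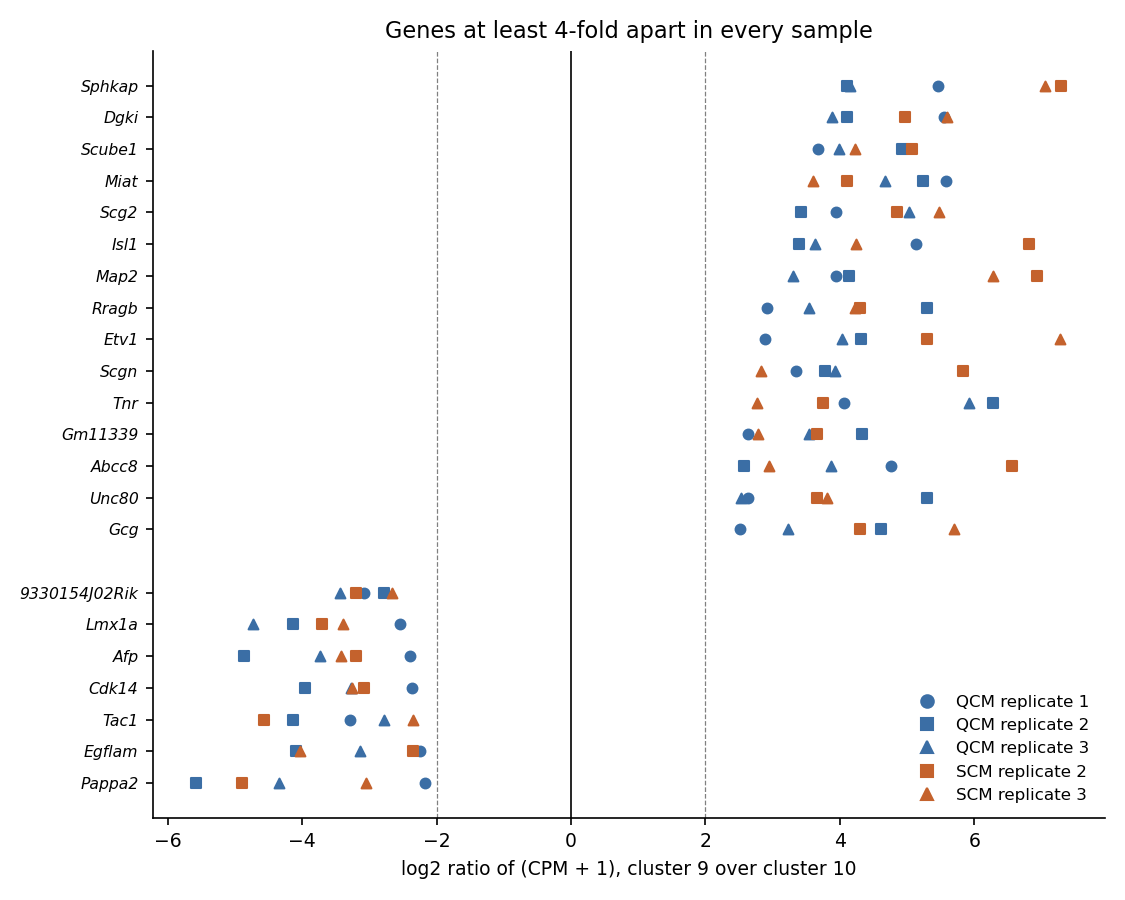
Log2 ratio of (CPM + 1) in cluster 9 over cluster 10 in each of the 5 samples for 15 of the 22 genes at least 4-fold higher in cluster 9 (right), those with the largest lowest ratio, and the 7 at least 4-fold higher in cluster 10 (left). Dashed lines mark 4-fold, and Dgki, Scube1, Rragb and Gm11339 had 0 UMIs in cluster 10, so that their ratios depend on the added 1 CPM. The same holds for samples in which another gene had 0 UMIs in the lower cluster. On the right these genes were Isl1, Etv1, Sphkap, Miat, Scg2, Map2, Scgn, Tnr, Abcc8 and Unc80. On the left they were 9330154J02Rik, Afp, Egflam and Pappa2. Sphkap and Dgki head the right side and 9330154J02Rik and Lmx1a the left.

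Hormone genes were described next, because they name the enteroendocrine subtypes. Of 15 peptide hormone genes in the files 8 reached 10 CPM, and 2 of them, Gcg and Gip, passed the 4-fold limit against the rest of the nuclei. Gcg, which encodes proglucagon, the precursor of GLP-1, had 282, 910 and 584 CPM in QCM and 583 and 591 CPM in SCM, against 39.6 CPM in the other nuclei. Gip had 149, 495 and 1987 CPM in QCM and 317 and 570 CPM in SCM, against 58.4 CPM. Cck had 219, 579 and 831 CPM in QCM and 124 and 627 CPM in SCM, against 54.4 CPM. Gcg was close in 3 of the 5 samples, whereas Gip and Cck were each spread over more than 5-fold between samples. Sct, the secretin gene, had 28.7, 55.9 and 85.8 CPM in QCM and 65.3 and 74.2 CPM in SCM, against 7.11 CPM. Ghrl, the ghrelin gene, averaged 27.1 ± 8.28 CPM (SD, n = 5) against 11 CPM, and Pyy averaged 23.3 ± 10.3 CPM against 4.17 CPM.

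The bases just upstream of these hormone genes and of Rfx6 are shown because the factors named above are known to act on such promoters. Each is the 250 bases before the annotated start in RefSeq on GRCm38.p6, written on the strand of the gene. The window of Rfx6 lies inside the longer gene that the annotation used for coordinates gives. Capitals mark, on either strand, the E-box forms CAGATG and CAGCTG of bHLH factors such as Neurod1, the homeodomain core TAAT of factors such as Isl1, and AGATAA of GATA factors.
Rfx6 promoter, chr10:51685268-51685517, plus strand: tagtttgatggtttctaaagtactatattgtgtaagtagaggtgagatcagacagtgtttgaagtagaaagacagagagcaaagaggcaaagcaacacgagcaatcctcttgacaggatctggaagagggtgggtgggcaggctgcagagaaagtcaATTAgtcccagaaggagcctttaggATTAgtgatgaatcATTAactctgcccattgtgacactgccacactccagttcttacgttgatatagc
Gcg promoter, chr2:62483654-62483903, minus strand: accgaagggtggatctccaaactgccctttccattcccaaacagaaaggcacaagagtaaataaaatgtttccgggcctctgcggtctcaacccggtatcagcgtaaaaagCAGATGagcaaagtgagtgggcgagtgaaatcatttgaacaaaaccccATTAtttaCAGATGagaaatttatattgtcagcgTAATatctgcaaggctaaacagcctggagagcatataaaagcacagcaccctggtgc
Gip promoter, chr11:96024295-96024544, plus strand: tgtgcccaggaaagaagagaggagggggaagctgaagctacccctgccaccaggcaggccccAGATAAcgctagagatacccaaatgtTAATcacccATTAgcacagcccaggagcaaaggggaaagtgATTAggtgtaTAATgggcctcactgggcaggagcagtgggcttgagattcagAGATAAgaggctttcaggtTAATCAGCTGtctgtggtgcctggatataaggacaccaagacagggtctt
Cck promoter, chr9:121495695-121495944, minus strand: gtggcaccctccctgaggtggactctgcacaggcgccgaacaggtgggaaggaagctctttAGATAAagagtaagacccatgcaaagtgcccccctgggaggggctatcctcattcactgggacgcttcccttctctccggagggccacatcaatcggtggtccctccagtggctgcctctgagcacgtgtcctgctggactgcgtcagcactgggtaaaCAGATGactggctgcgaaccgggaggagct
Sct promoter, chr7:141279134-141279383, minus strand: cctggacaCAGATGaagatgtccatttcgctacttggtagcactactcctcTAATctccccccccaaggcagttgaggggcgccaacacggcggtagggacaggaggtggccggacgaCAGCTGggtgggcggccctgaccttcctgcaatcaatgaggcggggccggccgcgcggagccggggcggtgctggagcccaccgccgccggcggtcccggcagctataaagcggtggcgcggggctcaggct
The Gcg promoter held 2 CAGATG and 2 TAAT matches, and that of Gip held 5 TAAT, 2 AGATAA and 1 CAGCTG, the last next to a TAAT. The promoter of Cck had 1 CAGATG and 1 AGATAA, that of Sct had 1 CAGATG, 1 CAGCTG and 1 TAAT, and that of Rfx6 had 3 TAAT. The RFX motif GTTGCC was searched too and had no match in these 5 windows. Over 27025 promoter windows of the same length, CAGATG was in 14.5%, CAGCTG in 12.8%, AGATAA in 10.3%, TAAT in 55.3% and GTTGCC in 10.5%. Of the 122 genes high in cluster 9, 91 were matched to a window, and the shares were 13.2%, 20.9%, 8.79%, 33.0% and 13.2%. A match is a run of letters and no evidence of binding.

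Per nucleus, hormone RNA was set beside that in clusters that should lack it, since free RNA can reach any droplet. A Gcg UMI was seen in 187 of 782 cluster 9 nuclei (23.9%), a Gip UMI in 208 (26.6%) and a Cck UMI in 230 (29.4%). In cluster 8, which stands high in enterocyte genes and should lack them, the shares were 13.2%, 15.7% and 16.9% at a median of 2366.5 UMIs, and in cluster 11, highest of the 15 clusters in the tuft list at 710 CPM, they were 12.8%, 14.5% and 19.9% at a median of 2080.5 UMIs. With each nucleus thinned to 1000 UMIs and shallower ones left out (101 of cluster 9, 50 of cluster 8), Gcg was seen in 16.4% of cluster 9 against 4.54% of cluster 8, Gip in 18.2% against 6.88%, Cck in 17.3% against 6.22%, and Sct in 5.43% against 0.586%. The share was higher in cluster 9 at equal depth for these 4 genes. A limit of 3 UMIs, set after seeing the data, left 77 nuclei for Gcg (9.85%), 88 for Gip (11.3%) and 90 for Cck (11.5%), against 0.212%, 0.565% and 1.13% in cluster 8.

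Part of the hormone RNA lay in few nuclei. Of 2969 Gip UMIs in cluster 9, 651 (21.9%) lay in 1 nucleus of QCM replicate 3, and without it the level in that sample was 1305 in place of 1987 CPM. Over all samples together, the 5 nuclei with the most UMIs held 27.6% of the Gcg, 35.9% of the Gip and 39.7% of the Cck UMIs. In QCM replicate 1, 66 of 96 Chga UMIs came from 1 nucleus. Nts, the neurotensin gene, was seen in 18 nuclei, and 40 of its 87 UMIs were in 1 of them. In QCM replicate 3, the sample with the most nuclei of the cluster, the leading 5 nuclei held 51.8% of the Gcg, 49.3% of the Cck and 42.0% of the Sct UMIs. These were the lowest shares of the samples used. The highest were 87.1% for Gcg in SCM replicate 3, 83.9% for Cck in QCM replicate 1 and 96.4% for Sct in SCM replicate 2. For Gip the range was 53.5% to 95.6%. The samples with the highest shares for Gcg, Cck and Sct had 26, 26 and 6 nuclei with a UMI of the gene. QCM replicate 3 had 88, 115 and 41. The share of a fixed 5 nuclei depends on that number. In SCM replicate 2, 1 nucleus held 60.3% of the Gip and 1 held 75.0% of the Sct UMIs.

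Several hormones occurred in the same nuclei. Of the 77 nuclei with 3 or more Gcg UMIs, 56 (72.7%) also had 3 or more of Cck, 19 (24.7%) of Gip and 17 (22.1%) of Sct. The 56 made up 62.2% of the nuclei with 3 or more Cck UMIs. Of 22 nuclei with 3 or more Sct UMIs, 19 (86.4%) also had 3 or more of Cck and 17 (77.3%) of Gcg. Gip overlapped less with Cck, in 33 nuclei (37.5% of the Gip nuclei and 36.7% of the Cck nuclei). The 56 nuclei with Gcg and Cck had a median of 5047 UMIs, against 3845 in the other 21 Gcg nuclei and 2789.5 in the other 34 Cck nuclei. The 33 nuclei with Gip and Cck had a median of 2714 UMIs, against 3334 in the other 55 Gip nuclei. Whether some of these were 2 nuclei in 1 droplet was not tested.

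Nuclei were then set apart by these UMIs, as a description, since the UMIs that define the groups are not independent of the other genes. Hormone nuclei with at least 3 Gcg UMIs and fewer than 3 of Gip numbered 58, those with at least 3 Gip UMIs and fewer than 3 of Gcg numbered 69, and nuclei with a Neurog3 UMI and fewer than 3 UMIs of each hormone gene numbered 58. A further 5 nuclei with a Neurog3 UMI had 3 or more of a hormone gene, of which 3 were among the Gcg nuclei and 1 among the Gip nuclei. The largest group, 557 nuclei (71.2%), had neither a Neurog3 UMI nor 3 UMIs of a hormone gene, and it was also the shallowest, with a median of 1821 UMIs against 4913.5, 2611 and 3302.5 in the others. Etv1 stood at 634 CPM in the Gcg nuclei, 102 CPM in the Gip nuclei, 8.81 CPM in the Neurog3 nuclei and 42.3 CPM in the nuclei with neither. In the same order Kcnj3 had 657, 337, 15.4 and 42.3 CPM, Pax6 had 200, 162, 6.61 and 46.6 CPM, and Rimbp2 had 953, 353, 132 and 165 CPM. Rfx6 was spread more evenly, at 478, 612, 390 and 274 CPM, and so was Kcnb2, at 1844, 1056, 1816 and 1255 CPM. Among the Neurog3 nuclei, 1 nucleus gave 119378 of the 454187 UMIs. With samples weighted equally, a step added after seeing the data, the Neurog3 nuclei had 19.5 CPM of Etv1, 27.7 of Kcnj3, 8.17 of Pax6 and 170 of Rimbp2. The samples gave unequal numbers to these groups, QCM replicate 3 giving 41 of the 69 Gip nuclei and 17 of the 58 Gcg nuclei, so the order was also read within each sample, on as few as 3 nuclei. Kcnj3 and Pax6 were higher in both groups of hormone nuclei than in both other groups in 5 of 5 samples, and Etv1 and Rimbp2 in 4 of 5. The same held for Rfx6 in 2 samples and for Kcnb2 in 0.

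Several granin, hormone and receptor genes stood higher in the Gcg nuclei than in the Gip nuclei. Scg2 stood at 166 CPM there against 31.1 CPM in the Gip nuclei, Chga at 249 against 31.1 CPM, Pyy at 113 against 6.66 CPM, Sct at 251 against 53.3 CPM and Cck at 2141 against 277 CPM. Ffar1 and Gpr119, receptors for fatty acids and for fat-derived amides, stood at 52.9 and 34.0 CPM against 6.66 and 6.66 CPM. Genes named from these groups of nuclei were picked with their values in view. The receptor counts were small, with 28 and 18 UMIs in the Gcg nuclei and 3 and 3 in the Gip nuclei. Without the nucleus with the most UMIs of the gene in each group, a step added after seeing the data, Chga had 134 CPM in the Gcg nuclei, its leading nucleus being that with 66 UMIs, and the other 6 genes moved by less than 1.5 times. The level was higher in the Gcg than in the Gip nuclei in 5 of 5 samples for Chga, Pyy, Cck and Ffar1, and in 4 of 5 for Scg2, Sct and Gpr119. Abcc8 had no clear order, with 86.8 CPM in the Gcg nuclei and 107 CPM in the Gip nuclei, and 87.0 and 83.4 CPM without the leading nuclei. The Neurog3 nuclei had the highest levels of Sox4, at 339 CPM against 106 to 196 CPM in the other 3 groups, and of Insm1, at 46.2 CPM against 15.5 to 22.7 CPM, which held within 5 of 5 samples for Sox4 and within 3 of 5 for Insm1. Other progenitor genes differed in this. The Neurog3 nuclei were highest within 3 of 5 samples for Hes6 and Mfng, 2 for Runx1t1, 1 for Dll1 and 0 for Neurod1 and Dll4. Of these 58 nuclei, 8 (13.8%) had a Gip UMI and 5 (8.62%) a Gcg UMI, against 15.7% and 13.2% of cluster 8. The 58 had been chosen for few hormone UMIs, cluster 8 had not, and depth was not made equal. Of all 63 nuclei with a Neurog3 UMI, 15.9% had a Gip UMI and 12.7% a Gcg UMI.

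**Figure D4:**
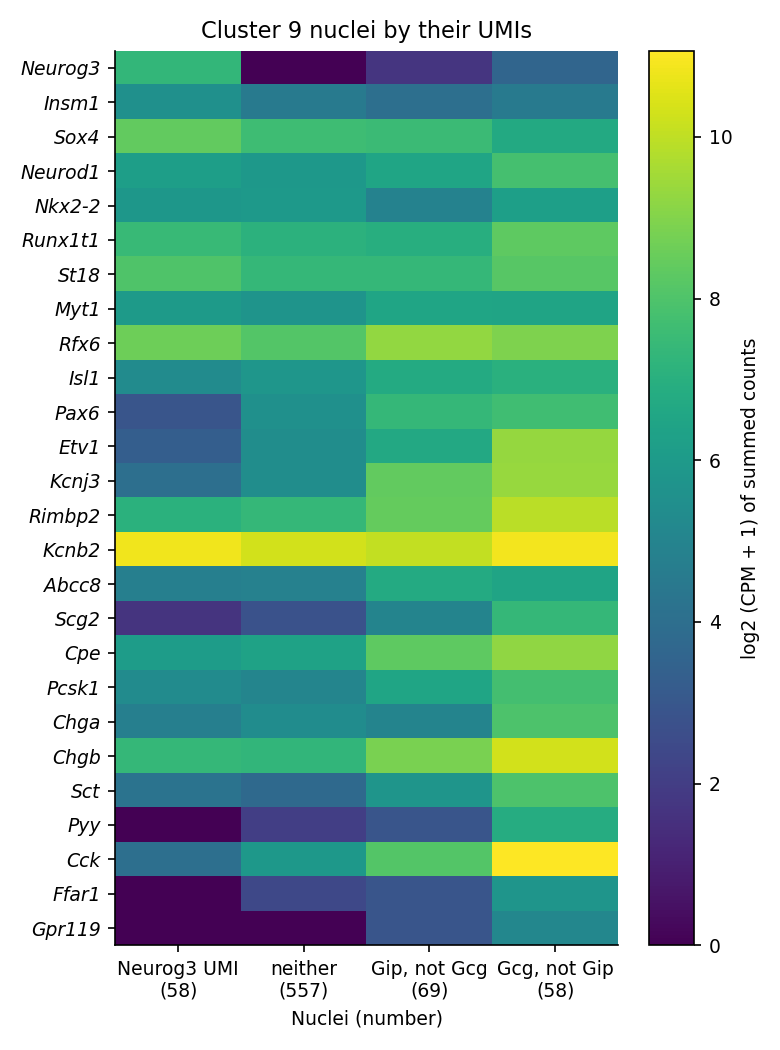
Log2 of (CPM + 1) of summed UMIs for 26 genes (rows) in 4 groups of cluster 9 nuclei (columns, number of nuclei in brackets): nuclei with a Neurog3 UMI and fewer than 3 UMIs of each hormone gene, nuclei with neither a Neurog3 UMI nor 3 UMIs of a hormone gene, nuclei with at least 3 Gip and fewer than 3 Gcg UMIs, and nuclei with at least 3 Gcg and fewer than 3 Gip UMIs. Groups differ in depth and were formed on these UMIs. Etv1 is brightest in the Gcg nuclei (634 CPM) and Sox4 in the Neurog3 nuclei (339 CPM), while Rfx6 is present in all 4.

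The last question was whether SCM changed expression within the cluster. Summed counts of the 3 QCM and 2 SCM samples were compared with the edgeR quasi-likelihood test, and 0 of 10250 genes were called (0%), the lowest adjusted p being 0.966. The unadjusted p was under 0.05 for 309 genes (3.01%), of which 104 had a higher and 205 a lower estimate in SCM. DESeq2 and limma with voom also called 0, with 164 and 242 genes at an unadjusted p under 0.05. These tests treat the samples of a medium as unpaired. The count did not stay at 0 without the filter on low counts, where edgeR called 79 of 23806 genes. Nor did it with the replicate number as a block, where edgeR called 205 of 11255, though the labels give these numbers no meaning. In that fit QCM replicate 1 had no partner, and replicates 2 and 3 alone, without the block, gave 0 calls of 9880.

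The 6 markers had log2 ratios of SCM to QCM of 0.55 ± 0.40 (SE) for Rfx6, 0.62 ± 0.60 for Kcnj3, 0.03 ± 0.46 for Etv1, 0.26 ± 0.43 for Pax6, 0.27 ± 0.38 for Rimbp2 and 0.50 ± 0.47 for Kcnb2, with edgeR adjusted p from 0.966 to 0.994. The ranges of the media overlapped for each of them, and QCM replicate 1 was the lowest sample for 5 of the 6. Without that sample the ratios were 0.24 for Rfx6, 0.14 for Kcnj3, -0.37 for Etv1, -0.12 for Pax6, -0.05 for Rimbp2 and 0.33 for Kcnb2. Neurog3 had 0.42 ± 0.44 and Chga -0.47 ± 0.45, with an edgeR adjusted p of 0.966 for each, and without that sample they had 0.19 and 0.03.

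Among the hormones, SCM over QCM gave a log2 ratio of -1.10 ± 0.89 for Gip, -0.06 ± 0.43 for Gcg, -0.58 ± 0.69 for Cck and 0.21 ± 0.42 for Sct (each with its SE), and edgeR's adjusted p ran from 0.966 to 0.992. The Gip estimate turned on QCM replicate 3 and was 0.49 without that sample. Leaving out the nucleus with the most UMIs of the gene in each sample, a step added after seeing the data, moved the log2 ratio of mean CPM from -0.98 to -1.01 for Gip, from -0.01 to -0.36 for Gcg, from -0.53 to -0.78 for Cck and from 0.30 to -0.74 for Sct. The estimate for Cck was 0.16 without SCM replicate 2, and that for Gcg was 0.31 without QCM replicate 2. Of the 9 hormone genes tested, 8 had a lower estimate in SCM, with a median log2 ratio of -0.37, against -0.01 over all 10250 genes, and 0 were called. Without QCM replicate 1 the estimate was lower for 9 of 9, with a median of -0.76, and with the share of ribosomal protein transcripts as a covariate it was lower for 5 and higher for 4, with a median of -0.16. In the nuclei outside cluster 9 the median of the same 9 genes was -1.21.

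Over all 10250 genes tested, 5009 had a higher and 5241 a lower estimate in SCM. Of the 14 lineage factors tested, 13 had a higher estimate, with a median log2 ratio of 0.45, and 1 was at an unadjusted p under 0.05. Of 23 granule genes 16 had a higher estimate (median 0.21), and of 17 ion channel genes 12 did (median 0.50). QCM replicate 1 had the lowest summed level of each of these 3 lists, and without it the medians were 0.26, 0.01 and 0.25, with 12 of 14, 12 of 23 and 13 of 17 estimates higher in SCM. Outside cluster 9 the medians of the same genes lay below 0, at -0.12, -0.18 and -0.16. The estimate was higher for 8 of 8 fetal genes tested (median 0.82) and for 6 of 7 YAP target genes (median 0.61), and outside cluster 9 the same genes also had medians above 0, at 1.51 and 0.31. The unpaired edgeR test called 0 members of any list in cluster 9. With the replicate block edgeR called 205 of 11255 genes in all, 26 higher and 179 lower in SCM. Among the lists it called 2 of 9 hormone genes lower and 2 of 10 fetal genes higher. It also called 1 of 18 ion channel genes and 1 of 10 YAP targets higher. Lower were 1 of 7 goblet, 2 of 7 Paneth and 1 of 8 stem genes. Of 13 enterocyte genes 2 were called higher and 2 lower. Ribosomal protein transcripts made up 7.88% ± 3.22 (SD, n = 3) of the cluster 9 UMIs in QCM and 4.38% ± 3.34 (SD, n = 2) in SCM. When that share entered as a covariate edgeR also called 0 genes (191 at an unadjusted p under 0.05), and the medians of the lineage factors, granule genes and ion channels were 0.25, 0.06 and 0.07. The median of the fetal list was 1.46, with 8 of 8 estimates higher, that of the YAP targets was 0.48, and that of the 11 enterocyte genes tested went from -0.42 to 0.18. Of the 6 markers, Neurog3, Chga, the 4 hormones and Lgals3, 8 had a log2 ratio closer to 0 with the covariate, among them Rfx6 with 0.17, Kcnb2 with 0.07 and Gip with 0.03. The other 5 lay farther from 0, Etv1 at -0.26, Pax6 at 0.31, Gcg at -0.25, Sct at 0.51 and Lgals3 at 2.54.

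The 4 genes with the smallest p in each direction are given with their values, called or not. The gap between the media in them follows in part from that choice. The share of all tested genes with such a gap was not counted. Samd12 had 17.0, 19.1 and 23.3 CPM in QCM and 62.9 and 54.2 CPM in SCM, a log2 ratio of 1.46 ± 0.32 (SE). Stox2 had 5.22, 8.83 and 13.8 CPM in QCM and 39.6 and 42.4 CPM in SCM, a log2 ratio of 2.02 ± 0.46 (SE). Eda2r, a receptor of the tumour necrosis factor family that p53 activates, had 2.61, 2.94 and 5.29 CPM in QCM and 18.7 and 23.6 CPM in SCM. Samd5 had 6.53, 5.89 and 0.0 CPM in QCM and 30.3 and 33.0 CPM in SCM. Eda2r and Samd5 rested on 37 and 50 UMIs in all and passed the count filter through the SCM samples alone. Stox2 also needed its SCM samples to pass it. In the other direction Ces1e, a carboxylesterase gene, had 19.6, 19.1 and 20.1 CPM in QCM and 4.66 and 3.53 CPM in SCM, and Rragd, a GTPase of nutrient signalling, had 67.9, 38.3 and 33.9 CPM in QCM and 16.3 and 15.3 CPM in SCM. Spink4, a goblet cell peptidase inhibitor, had 397, 255 and 369 CPM in QCM and 145 and 179 CPM in SCM. Both SCM samples lay below all 3 QCM samples for these genes and for Naxe. Ces1e, with 52 UMIs in all, and Naxe passed the count filter through the QCM samples alone. The edgeR adjusted p was 0.966 for each of these 8 genes. All 8 had a log2 ratio of the same sign outside cluster 9. It was 0.77 to 3.19 for the 4 higher ones and -1.41 to -0.65 for the 4 lower ones. Spink4 averaged 412 and 182 CPM there in QCM and SCM. Lgals3, a lectin gene of the epithelium, had 56.1, 13.3 and 34.9 CPM in QCM and 25.6 and 152 CPM in SCM, a log2 ratio of 1.36 ± 0.66 (SE, edgeR adjusted p 0.966), and it rested on SCM replicate 3, without which it was -0.57.

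Whether the medium acted otherwise in cluster 9 than in the rest of the organoid was tested in a fit over both, with each sample as a block. Of 20029 genes 6 were called (0.03%), and 517 had an unadjusted p under 0.05. Leaving out QCM replicate 2 gave 49 calls, QCM replicate 1 or 3 gave 16 each, and SCM replicate 2 gave 19. Each of the 6 lost its call when at least 1 sample was left out. The called genes were Gnao1, Chgb, Ldlrad4, Apoa4, Slc2a5 and Sprr1a. Gnao1, the Go alpha subunit of neurons and endocrine cells, had 53.5, 219 and 121 CPM in cluster 9 in QCM and 252 and 180 CPM in SCM, and 3.63, 4.32 and 9.27 CPM and 2.55 and 3.97 CPM in the other nuclei. The difference between these medium effects was 1.66 ± 0.32 on the log2 scale (SE, edgeR adjusted p 0.00881). For Chgb it was 1.29 ± 0.27 (SE, edgeR adjusted p 0.0291), with 381 and 456 CPM in cluster 9 in QCM and SCM and 95.0 and 48.0 CPM in the other nuclei. In cluster 9 itself the media overlapped for both genes, and most of the Chgb difference lay in the other nuclei, where the log2 ratio was -1.16 ± 0.40 (SE).

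Sprr1a, a gene of squamous epithelium, rested on 33 UMIs of cluster 9, all in SCM replicate 3. Other hormone genes were not called. Outside cluster 9 the SCM estimate lay below QCM by a log2 ratio of -1.13 ± 0.38 for Gcg and -1.50 ± 0.50 for Sct (edgeR adjusted p 0.918 for each). The difference of cluster 9 from that was 1.17 ± 0.28 for Gcg and 1.70 ± 0.41 for Sct, with an edgeR adjusted p of 0.107 for each. The level outside cluster 9 was 49.3 and 25 CPM for Gcg and 9.34 and 3.75 CPM for Sct in QCM and SCM, and the share of cluster 9 nuclei in these 3 QCM and 2 SCM samples averaged 2.11% and 1.4%. How far free hormone RNA, and the number of nuclei that release it, entered these values was not tested. With cluster 10 as the reference, with limma on per-sample differences, and among the genes that pass the count filter within cluster 9, 0 genes were called. Sprr1a was not among the genes tested in these 3 fits, so the lost calls are those of the other 5.

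**Figure D5:**
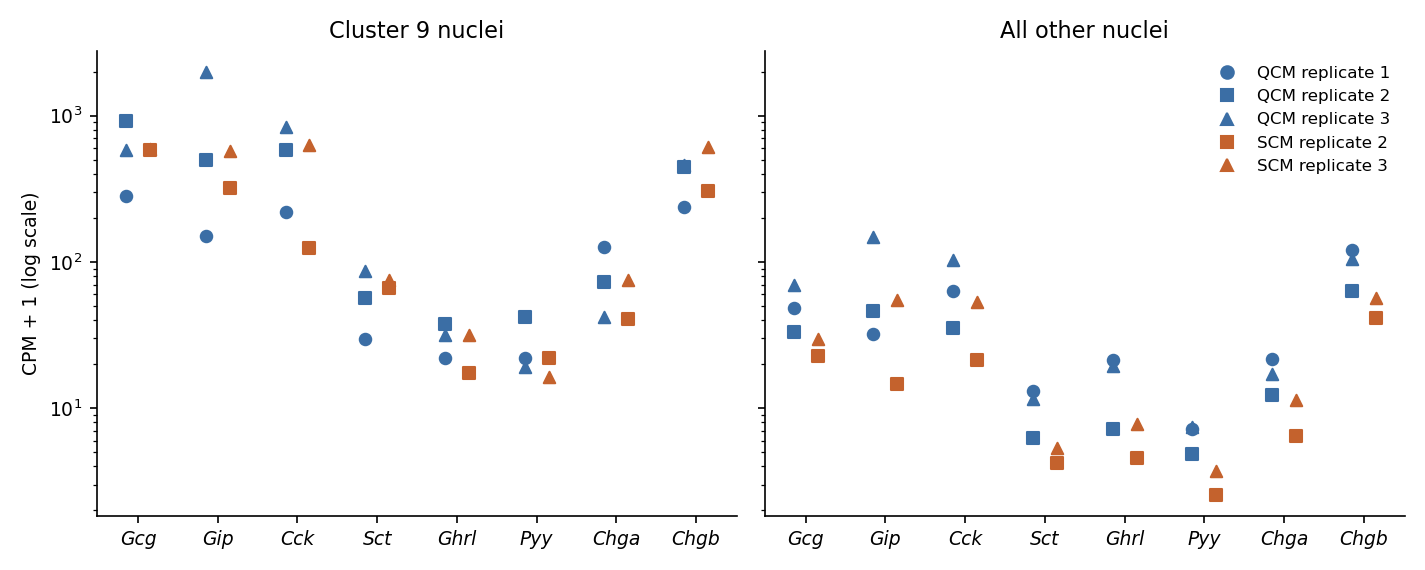
Level of 6 hormone genes and of Chga and Chgb per sample, as CPM + 1 on a log axis, in cluster 9 (left) and in all other nuclei (right). Blue points are QCM samples and orange points SCM samples, with one marker shape per replicate number. In cluster 9 the media overlap for each gene, and in the other nuclei Chgb lies between 61.9 and 119 CPM in QCM and at 40.2 and 55.8 CPM in SCM.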

How the data were processed

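Nuclei of frozen organoids were sequenced with a 10x 3′ v3.1 kit. The deposited matrices hold UMI counts per gene and nucleus, not normalised, which the authors made with Cell Ranger (version 2.1.1 per the submitters' notes) on mm10. Nuclei more than 3 mean absolute deviations (the study's term) off in mitochondrial fraction, reads or genes had been removed per sample by the authors, who deposited that fraction and Leiden cluster numbers after Harmony integration. Whether introns or strand were counted is not given in the sources used here. Their text names no doublet or free RNA step, and no doublet caller was run. Leaving out the deepest 6% of nuclei was an alternative.

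Counts were summed per sample over cluster 9, cluster 10 and all nuclei outside cluster 9. Samples with at least 10 nuclei entered. The media were compared with edgeR 4.0.16 (quasi-likelihood, TMM, default count filter, Benjamini-Hochberg, threshold 0.05), with DESeq2 1.42.0 and limma 3.58.1 as alternatives, in R 4.3.3, and scripts used Python 3.11.15. The scripts were tested on simulated data. Shares have Wilson 95% intervals, which cover counting error only. Genes were called higher at 4-fold or more, with 1 CPM added, in each of 5 samples at 10 CPM or more. Of 31319 genes 31244 had a symbol, and coordinates are GENCODE M21 on GRCm38.

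Members and lists were chosen with earlier results of these data known. Named genes were the 6 markers, the 15 with the largest lowest ratio, the 8 largest on each side against cluster 10, at most 6 members of each enteroendocrine list, and by medium also Chga, Neurog3, Lgals3, 4 hormone genes and the 4 smallest p in each direction. Others, such as Abcc8, Tph1, Cpe, Pcsk1, Insm1, Foxa1, Kcnma1 and Nts, were picked with their values in view. The labels do not say that replicates are separate mice, so p-values measure only the spread between these samples.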

Additional observations from a re-analysis of the deposited data

Results flagged for a closer look

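A test of the difference itself, between the medium effect in cluster 9 and that in all other nuclei, brought up 6 genes (edgeR quasi-likelihood test, SCM over QCM, log2). For Sprr1a the difference was 11.49 (adjusted p 0.0083), and its 33 UMIs in cluster 9 all came from 1 sample, SCM replicate 3. With 0 UMIs in cluster 9 in all QCM samples, 11.49 is a fitted value without an exact size. For Gnao1 it was 1.66 (adjusted p 0.00881) and for Chgb 1.29 (adjusted p 0.0291). Apoa4, an apolipoprotein gene of enterocytes, had 1.66 (adjusted p 0.0384), with 347, 17.7 and 82.6 CPM in QCM and 9.33 and 207 CPM in SCM in cluster 9, and 710 CPM in the other nuclei of QCM replicate 1 against 26.6 to 67.1 CPM in the remaining 4 samples. Slc2a5, the fructose transporter gene, had 1.98 (adjusted p 0.0471), and its level outside cluster 9 was likewise highest in QCM replicate 1, at 74.7 CPM against 5.84 to 8.64 CPM. Ldlrad4 had -1.26 (adjusted p 0.0384), with 6.08, 19.8 and 27.9 CPM in QCM and 73.7 and 59.0 CPM in SCM outside cluster 9. In cluster 9 the media overlapped for all 6 genes. Without SCM replicate 3 the calls of Sprr1a (1.37), Chgb (1.02), Slc2a5 (1.67), Ldlrad4 (-1.49) and Apoa4 (-1.65, the opposite sign) were lost. Gnao1 was lost without QCM replicate 3 (1.29, adjusted p 0.0551) or SCM replicate 2 (1.18), Ldlrad4 also without QCM replicate 2 (-0.90) or SCM replicate 2 (-1.04), and Slc2a5 also without QCM replicate 1 (0.92), while the other 5 were still called without QCM replicate 1.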

How the results depend on the processing

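The lower share of cluster 9 in SCM kept its sign, with an adjusted p above the threshold, under every alternative run, from -1.16 to -0.05 with 1 sample left out, while the share among clusters 9 and 10 ran from -21.0 to 4.74, the last without SCM replicate 2. The count of genes that differed by medium was 0 under the alternatives run except without a filter on low counts (79) and with a replicate block (205). The labels give no meaning to the replicate numbers. Same-numbered samples had correlated deviations from the group means of 0.35, 0.55 and -0.03 for replicates 1, 2 and 3 over all nuclei, and of 0.47 and 0.37 for replicates 2 and 3 in cluster 9, so a pairing was not shown in every pair. No values for samples of different numbers stand beside them, so these correlations alone can neither show nor exclude a pairing. With the replicate block the share of cluster 9 had a log2 ratio of -0.76 (adjusted p 0.454), and Gip (-1.34, adjusted p 9.73e-05), Cck (-1.24, 8.33e-05), Lgals3 (1.76, 6.85e-06), Samd12 (1.35, 0.00973), Stox2 (1.73, 0.0128), Samd5 (3.56, 0.000187) and Spink4 (-1.02, 0.000604) were called by edgeR. In that fit of genes QCM replicate 1 had no partner of its number, so the medium differences and their p-values rested on replicates 2 and 3. Those replicates alone, without the block, gave 0 calls among 9880 genes. Without a filter Lgals3, Samd12, Stox2, Samd5 and Rragd were called. The count of genes whose medium effect differed was 0 with cluster 10 as reference, with the filter in cluster 9 (added after seeing the data) and with limma, 10 by library size alone, 19 without a filter, and 7 to 49 with 1 sample left out. With 5 CPM added, the counts against other nuclei and on the sides of clusters 9 and 10 were 52, 7 and 4. Without the deepest 6% the latter were 41 and 11, and with 1 sample left out 20 to 51 and 7 to 11. Of 21 named genes 12 kept their sign. With the block, and with replicates 2 and 3 alone, Etv1 had -0.35 and -0.37, Pax6 -0.12 and -0.12, Rimbp2 -0.01 and -0.05, Chga 0.07 and 0.03 and Sct -0.12 and -0.12. The ribosomal covariate gave -0.26 for Etv1 and 0.03 for Gip, voom gave 0.08 for Gcg, and Sct was -0.74 without leading nuclei (added after seeing the data). With 1 sample left out the ranges were -0.37 to 0.41 (Etv1), -0.12 to 0.56 (Pax6), -0.05 to 0.62 (Rimbp2), -1.09 to 0.03 (Chga), -1.64 to 0.49 (Gip), -0.40 to 0.31 (Gcg), -2.26 to 0.16 (Cck), -0.12 to 0.74 (Sct) and -0.57 to 2.07 (Lgals3). The cause of these changes was not tested. Leaving out an SCM sample leaves 1, assumed to vary like the others. The number of nuclei limits SCM replicate 1, with 3 in cluster 9.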

Other observations

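SCM replicate 1, which entered no comparison of genes by sample, held 3 cluster 9 nuclei with 18254 UMIs, and 2 of the 3 had 3 or more UMIs of a hormone gene. In the other samples such nuclei were 25.6%, 29.6% and 20.8% of cluster 9 in QCM and 25.9% and 14.4% in SCM.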
